A study of Mus musculus with 8 samples.

Results

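Genes of the TNF family ligands were followed in CD8+ T cells that had infiltrated mouse melanomas. The set comprised 8 genes of the 17830 named on the array, namely Tnfsf14, Fasl, Tnf, Lta, Ltb, Tnfsf10, Tnfsf11 and Cd40lg, taken by gene name with every probe, 11 of 25697 probes in all. Ligands of this family are trimeric membrane proteins, some of which are also released in soluble form by proteases, and they signal through receptors of the TNF receptor family. Receptors with a death domain can start apoptosis, and most of the others recruit TRAF adaptors and activate NF-kB. In CD8+ T cells the family is known for effector ligands, such as Fas ligand and TNF, and for ligands that act on neighbouring stromal and immune cells, such as LIGHT and the lymphotoxins.

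The tumors were B16.SIY.dsRed, a mouse melanoma line carrying the model antigen SIY and the fluorescent protein dsRed, grown for 14 days on both flanks of 10 female C57BL/6 mice, and pooled before the sort. CD8+ cells were sorted on 3 receptors, the costimulatory receptor 4-1BB, itself a member of the TNF receptor family, and the inhibitory receptors LAG3 and PD-1. The 4 populations were double-positive cells (4-1BB+ LAG3+), LAG3+ cells (LAG3+ without 4-1BB), PD-1+ cells (PD-1+ without 4-1BB or LAG3) and triple-negative cells (without any of the 3), and none of the mice or cells was treated. The labels do not state PD-1 for the double-positive and LAG3+ cells, and neither they nor the design text give the age of the mice or say whether the 10 mice served each experiment or both together. Each population had 2 single-colour Illumina bead arrays, 1 from each of 2 experiments of pooled tumors, so the p-values rest on the spread between 2 pools and not on that between animals.

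Between 6933 and 9044 probes were detected on the 6 arrays of double-positive, LAG3+ and triple-negative cells, against 5522 and 6404 on the PD-1+ arrays, whose replicate correlation across genes was also the lowest, 0.771 against 0.898 to 0.934. The PD-1+ arrays stood apart from the others and from each other, so PD-1+ values are given per array and the effect of leaving these arrays out is given where it matters. Of 12 T cell identity genes, 10 or 11 were detected on every array, and Cd8b1, the CD8 beta chain, lay between 12.08 and 12.54 log2 units, although the Cd8a probe was detected on none. Lag3 mRNA, for the sorted receptor, had 8.99 to 9.56 log2 units on the double-positive and LAG3+ arrays, 8.41 and 8.92 on the PD-1+ arrays and 4.64 and 4.32 on the triple-negative arrays. Tnfrsf9 mRNA, for 4-1BB, had 8.96 and 8.84 log2 units in double-positive, 7.57 and 7.69 in LAG3+, 6.66 and 8.16 in PD-1+ and 4.71 and 5.16 in triple-negative cells, and Pdcd1 mRNA, for PD-1, had 4.94 and 5.26 in double-positive, 4.98 and 4.97 in LAG3+, 5.39 and 4.27 in PD-1+ and 4.19 and 4.12 in triple-negative cells. Thus the RNA of the pools sorted as PD-1+ without LAG3 or 4-1BB protein held the mRNA of both, and Pdcd1 on PD-1+ array 2 was near background. Which cells of these pools held the mRNA was not tested. Levels below are background-corrected, normalized log2 intensities, on which a probe without signal lies near 4.2. A probe was detected where its detection p, the authors' scanner value, was under 0.05, and the lowest detected signal of an array ranged from 4.34 log2 units on triple-negative array 1 to 5.0 on PD-1+ array 2. Since probes differ in brightness, levels are compared between populations for 1 probe, not between genes.

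The ligand that differed most between populations was Tnfsf14, which encodes LIGHT, a ligand of the herpesvirus entry mediator and of the lymphotoxin beta receptor that costimulates T cells. Its level was 4.78 and 4.25 log2 units in double-positive cells, 4.91 and 6.97 in LAG3+ cells, 7.54 and 7.85 in PD-1+ cells, and 7.13 and 7.53 in triple-negative cells (experiments 1 and 2). Both double-positive arrays lay below every other array, and the second of them was not detected. LAG3+ array 1 was close to the double-positive arrays and LAG3+ array 2 close to the triple-negative ones, a gap of 2.06 within 1 population. Both PD-1+ arrays lay above both triple-negative arrays, by 0.41 in experiment 1 and 0.32 in experiment 2. The order PD-1+, triple-negative, LAG3+, double-positive was the same in both experiments, which was true of no other tested ligand gene and of 8.69% of the 7893 genes tested.

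**Figure D1:**
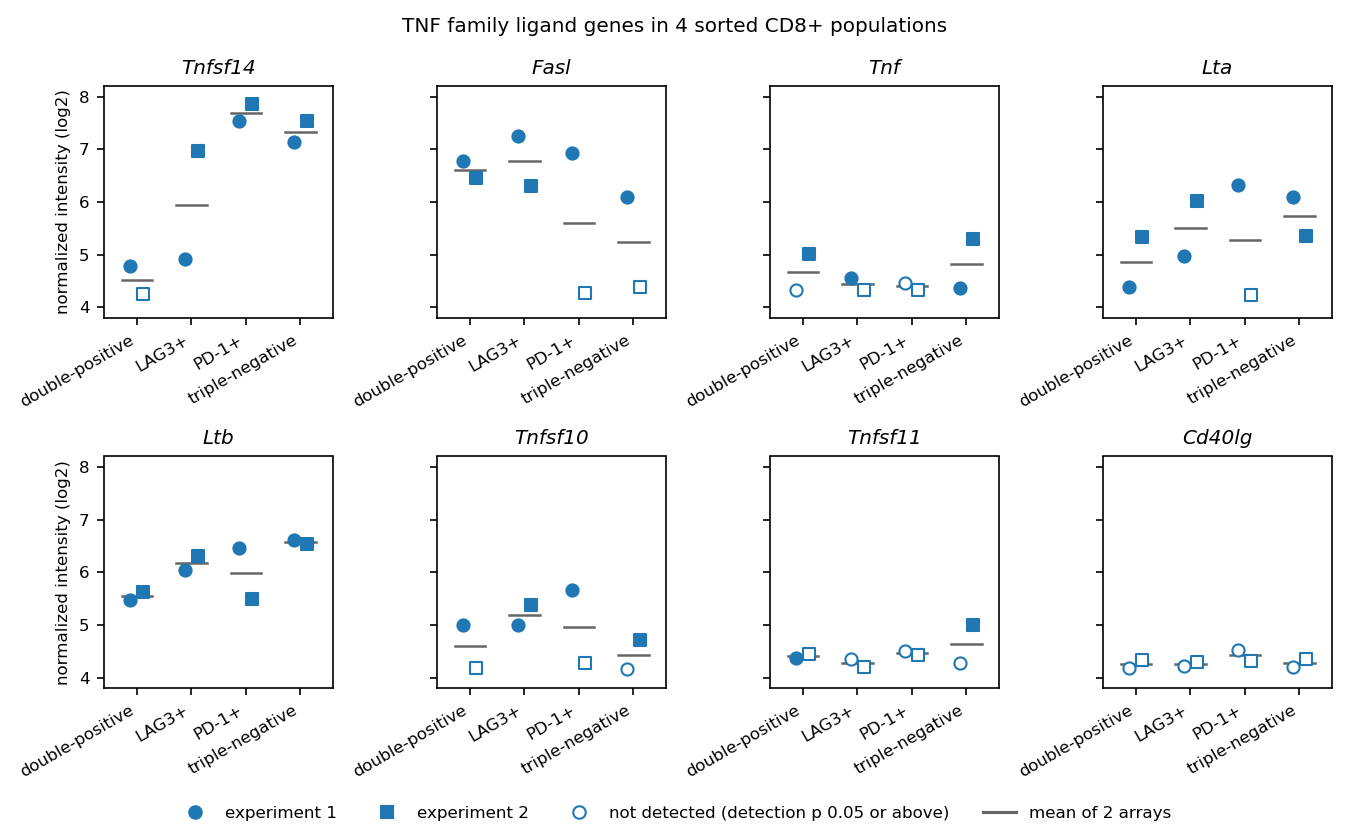
Normalized log2 intensity (vertical axis) of the brightest probe of each of the 8 ligand genes on the 8 arrays, by sorted population; circles are experiment 1, squares experiment 2, open symbols arrays on which the probe was not detected, and bars the mean of 2 arrays. Tnfsf14 lies between 4.25 and 4.78 in double-positive cells and above 7 in PD-1+ and triple-negative cells, while Cd40lg is detected on no array.

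In limma, fitted over all 8 arrays and adjusted by Benjamini-Hochberg over the 7893 genes, the Tnfsf14 change in double-positive against triple-negative cells was -2.81 ± 0.65 (log2 ± SE, 95% interval -4.35 to -1.28), 7.03-fold lower by the fitted means, with adjusted p = 0.109. The change against PD-1+ cells was -3.18 ± 0.65, or 9.07-fold lower by the fitted means, with adjusted p = 0.0912 in limma. Since the probe was detected on 1 of the 2 double-positive arrays, these folds and the experiment 2 differences include a signal that was not above background and are not exact. Neither passed the threshold of 0.05. The difference from triple-negative cells was -2.35 within experiment 1 and -3.28 within experiment 2, and that from PD-1+ cells was -2.76 and -3.60, so both were lower in each experiment. Over the alternative settings the adjusted p ranged from 0.0520 to 0.527 against triple-negative cells and from 0.0635 to 0.426 against PD-1+ cells.

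LAG3+ cells took an intermediate place for Tnfsf14 that the arrays did not fix. Their change against triple-negative cells was -1.39 ± 0.65 (adjusted p = 0.595 in limma), -2.21 in experiment 1 and -0.56 in experiment 2. Leaving out LAG3+ arrays or others in turn moved it between -2.45 and -0.36. In double-positive against LAG3+ cells the change was -1.43 ± 0.65 (95% interval -2.96 to 0.105, adjusted p = 1.00), and in LAG3+ against PD-1+ cells it was -1.75 ± 0.65 (adjusted p = 0.364). PD-1+ and triple-negative cells differed by 0.37 ± 0.65 (95% interval -1.17 to 1.90, adjusted p = 0.844), which leaves room for more than a 2-fold difference either way. In limma's F test over the 4 populations Tnfsf14 ranked 347 of 7893 genes, with adjusted p = 0.145.

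A second Tnfsf14 probe followed the first. It was not detected on either double-positive array (4.24 and 4.17 log2 units) and was detected on all of the others, with 4.49 and 6.15 in LAG3+ cells, 6.33 and 6.44 in PD-1+ cells and 5.70 and 6.39 in triple-negative cells. Its LAG3+ arrays showed the same split between experiments. A probe below background has only an upper limit, so the mean signals are compared as a bound. By these means double-positive cells were at least 3.03-fold below triple-negative, 3.83-fold below PD-1+ and 1.84-fold below LAG3+ cells. Such a bound sets the mean of the brighter population against, on each dim array, the lowest detected signal of that array or the probe's own signal, whichever is higher. It allows for signal below background and not for the spread between arrays, so it is no minimum of the population difference. The bound against LAG3+ cells rests mainly on LAG3+ array 2. LAG3+ array 1, at 4.49, was close to the lowest detected signal of double-positive array 1, 4.37. When each probe was tested by itself, the second probe changed by -1.84 ± 0.55 in double-positive against triple-negative cells (adjusted p = 0.217 in limma). Against LAG3+ cells it changed by -1.12 ± 0.55 (adjusted p = 0.9996 in limma). The remaining Tnfsf14 probe was detected on no array.

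**Figure D2:**
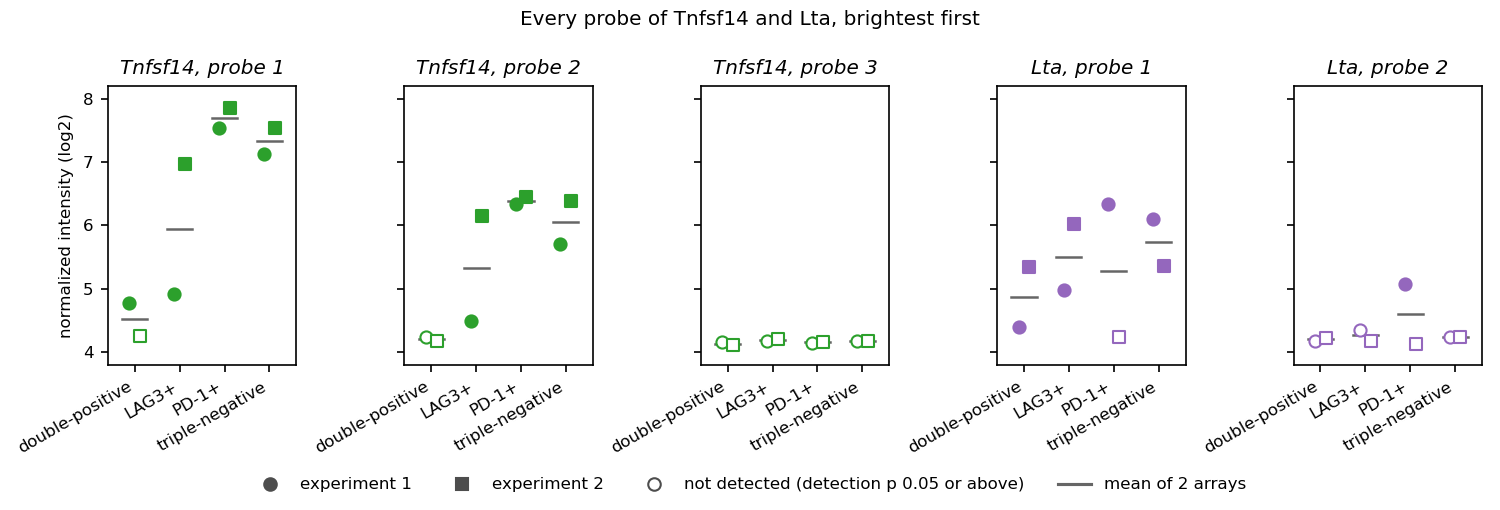
Normalized log2 intensity (vertical axis) of the 3 Tnfsf14 probes (green) and the 2 Lta probes (purple) on the 8 arrays by sorted population; open symbols are arrays on which a probe was not detected and bars the mean of 2 arrays. Both detected Tnfsf14 probes are lowest on the double-positive arrays, and the second Lta probe is detected only on PD-1+ array 1.

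Some markers of other cells were, like Tnfsf14, low in double-positive cells, but they did not follow it on every array. The summed signal of 7 B cell genes was 125 and 127 intensity units on the double-positive arrays, where none of them was detected. It was 148 and 193 on the LAG3+ arrays, 376 and 394 on the PD-1+ arrays and 168 to 231 on the triple-negative arrays. Cd79b, a chain of the B cell receptor complex, was the brightest of them there, with 4.26 and 4.15 log2 units in double-positive cells, 5.03 and 6.34 in LAG3+ cells, 8.0 and 7.96 in PD-1+ cells and 6.70 and 5.65 in triple-negative cells. Cd22, the other tested gene of this list, had 4.77 and 4.27 in PD-1+ cells and 5.05 and 4.71 in triple-negative cells. Its change in PD-1+ against triple-negative cells was -0.35, where that of Cd79b was 1.80. The defining B cell genes Ms4a1, Cd79a and Pax5 were detected on no array.

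The summed signals of class II and dendritic cell genes and of macrophage and monocyte genes were likewise highest on the PD-1+ arrays. The 9 genes of class II and dendritic cells summed to 268 to 400 intensity units on double-positive, 312 to 577 on LAG3+, 1044 to 1434 on PD-1+ and 373 to 893 on triple-negative arrays, with Itgax, Flt3 and Xcr1 detected on none. The 10 macrophage and monocyte genes summed to 200 to 204 on double-positive, 238 to 267 on LAG3+ and 417 to 1367 on PD-1+ arrays. On triple-negative arrays they summed to 223 to 328, and Itgam and C1qc were detected on no array. All 4 tested class II genes had a positive change in PD-1+ against triple-negative cells. Of the 5 tested macrophage genes 3 did, while Adgre1 and Fcgr1 had a negative change, at -0.17 ± 0.35 and -0.25 ± 0.31. Within LAG3+ cells the class II and macrophage sums were lower in experiment 2, 312 against 577 and 238 against 267. Within triple-negative cells the B cell and class II sums were lower, 168 against 231 and 373 against 893. Tnfsf14 was higher in experiment 2 in both populations, as were the B cell sum of LAG3+ and the macrophage sum of triple-negative cells. NK cell genes summed to 175 to 227 on double-positive and 116 to 157 on LAG3+ arrays. They summed to 218 to 565 on PD-1+ and 159 to 202 on triple-negative arrays. The part of these other cells in the Tnfsf14 difference was not tested. In RNA from sorted pools, fewer cells with a transcript and less of it per cell cannot be told apart.

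**Figure D3:**
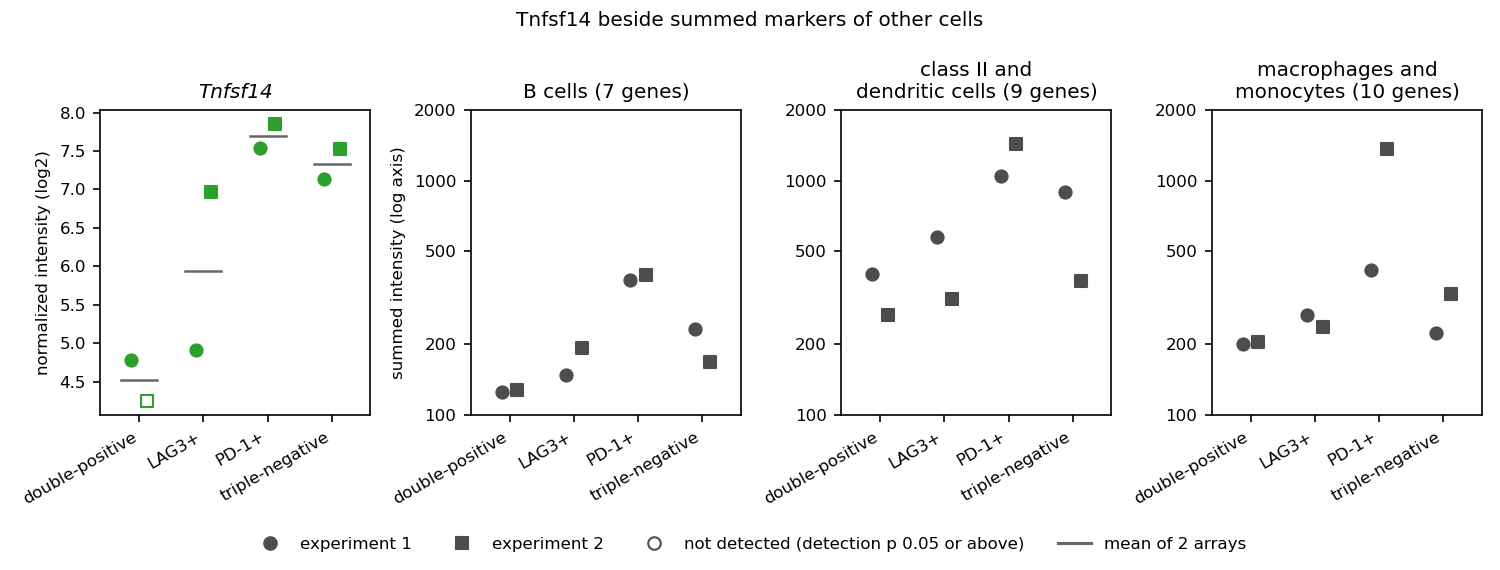
Normalized log2 intensity of Tnfsf14 (left) beside the summed normalized intensity of marker genes of B cells, of class II and dendritic cells, and of macrophages and monocytes (log axes) on each array by sorted population. All sums are highest on the PD-1+ arrays, between 376 and 1434, and lowest or among the lowest on the double-positive arrays.

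The sequence just upstream of Tnfsf14 is shown because this gene carried the largest change of the 7 tested ligand genes, with those of Fasl, Ltb and Lta for the genes described next. Each run is the 250 bases before the gene's start in RefSeq, build GRCm38.p6, written 5′ to 3′ on the gene's own strand. Capitals mark matches, on either strand, to the NFAT core GGAAA, the AP-1 site TGANTCA, the TATA box TATAAA and the NF-kB consensus.
Tnfsf14, chr17:57194182-57194431, minus strand: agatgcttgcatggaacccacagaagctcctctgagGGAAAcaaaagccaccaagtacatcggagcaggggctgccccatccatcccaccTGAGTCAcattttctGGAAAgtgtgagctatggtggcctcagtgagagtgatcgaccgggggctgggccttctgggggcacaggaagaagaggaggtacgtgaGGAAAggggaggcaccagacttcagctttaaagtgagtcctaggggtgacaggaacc
Fasl, chr1:161788496-161788745, minus strand: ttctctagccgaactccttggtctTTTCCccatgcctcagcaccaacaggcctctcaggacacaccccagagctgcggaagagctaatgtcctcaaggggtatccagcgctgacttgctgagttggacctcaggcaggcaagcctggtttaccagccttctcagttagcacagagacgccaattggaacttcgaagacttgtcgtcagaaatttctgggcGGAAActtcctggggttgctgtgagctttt
Ltb, chr17:35194257-35194506, plus strand: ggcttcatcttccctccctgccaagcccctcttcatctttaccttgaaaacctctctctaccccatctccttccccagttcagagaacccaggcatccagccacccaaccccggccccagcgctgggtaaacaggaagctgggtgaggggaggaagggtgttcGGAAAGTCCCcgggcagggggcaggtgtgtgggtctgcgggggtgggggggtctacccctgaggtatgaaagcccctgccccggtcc
Lta, chr17:35205352-35205601, minus strand: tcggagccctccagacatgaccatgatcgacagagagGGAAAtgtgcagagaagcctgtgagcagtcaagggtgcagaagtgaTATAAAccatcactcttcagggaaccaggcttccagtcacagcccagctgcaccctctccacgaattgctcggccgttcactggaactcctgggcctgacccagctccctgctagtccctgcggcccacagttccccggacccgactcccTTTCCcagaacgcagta
The NFAT core occurred in all 7 ligand genes with a sequence in the table, and in 55.6% of 32851 windows of the same length. Tnfsf14 had 3 of these cores, at -214, -145 and -57 from the gene's start (the leftmost base of each match), and the only AP-1 match of the 7, at -160, a motif found in 6.7% of windows. Fasl had NFAT cores at -226 and -30, and Lta at -213 and -17. The NF-kB consensus, found in 7.3% of windows, occurred only in Ltb, at -87, where it overlapped the NFAT core. TATAAA, found in 12.4%, lay at -29 in Tnf and at -167 in Lta, and on the opposite strand at -32 in Tnfsf11. The interferon response element, searched as GAAA and a second GAAA after 2 further bases, was found in 3.0% of windows and in none of the 7. These matches describe the letters only.

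Ltb encodes lymphotoxin beta, which anchors lymphotoxin alpha at the cell surface in a heterotrimer that binds the lymphotoxin beta receptor. It was the only ligand gene detected on all 8 arrays. Its level was 5.48 and 5.62 log2 units in double-positive cells, 6.05 and 6.32 in LAG3+ cells, 6.47 and 5.50 in PD-1+ cells and 6.62 and 6.54 in triple-negative cells. Triple-negative cells were above all 6 other arrays, and double-positive cells below both LAG3+ arrays. The change in double-positive against triple-negative cells was -1.03 ± 0.39 (95% interval -1.95 to -0.106), 2.04-fold lower, -1.14 in experiment 1 and -0.92 in experiment 2. It did not pass the test (adjusted p = 0.310 in limma). Differences from triple-negative cells were smaller in LAG3+ cells, at -0.39 ± 0.39 (adjusted p = 0.934), and in PD-1+ cells, at -0.60 ± 0.39 (adjusted p = 0.544), where experiment 1 gave -0.16 and experiment 2 gave -1.04.

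Lta encodes lymphotoxin alpha, which is secreted as a trimer that binds the TNF receptors or held at the surface by lymphotoxin beta. Its level was 4.39 and 5.34 log2 units in double-positive cells, 4.98 and 6.02 in LAG3+ cells, 6.33 and 4.24 in PD-1+ cells and 6.10 and 5.36 in triple-negative cells. The PD-1+ arrays were the highest and the lowest of all, and the second was not detected. The change in double-positive against triple-negative cells was -0.87 ± 0.76 (adjusted p = 0.786 in limma), with -1.72 in experiment 1 and -0.019 in experiment 2, so nearly all of it came from experiment 1. A second Lta probe was detected on PD-1+ array 1 alone, at 5.07 log2 units.

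Ltb, Tnf and Lta are consecutive protein-coding genes on chromosome 17 in RefSeq, and Tnfsf14 lies elsewhere on that chromosome beside Cd70. Across the 8 arrays Lta and Ltb had a Pearson r of 0.83, a description over arrays that share their population and experiment, while Tnf had 0.16 with Ltb and 0.03 with Lta. Both lymphotoxin genes dropped on PD-1+ array 2, which had the fewest detected probes of all arrays. Its part in this likeness was not tested.

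Fasl encodes Fas ligand, with which cytotoxic T cells start apoptosis in cells that carry Fas. Its level was 6.77 and 6.45 log2 units in double-positive cells, 7.25 and 6.30 in LAG3+ cells, 6.93 and 4.28 in PD-1+ cells and 6.10 and 4.38 in triple-negative cells. All 4 arrays of double-positive and LAG3+ cells lay above both triple-negative arrays. The probe was not detected on the experiment 2 arrays of PD-1+ and triple-negative cells, the 2 arrays of that experiment with the fewest detected probes, 5522 and 6933, but it was detected on PD-1+ array 1, which had 6404. The experiment 2 differences from triple-negative cells below are therefore against a signal that was not above background. The change against triple-negative cells was 1.37 ± 0.93 in double-positive cells (adjusted p = 0.661 in limma), 0.67 in experiment 1 and 2.07 in experiment 2. In LAG3+ cells it was 1.54 ± 0.93 (adjusted p = 0.746), 1.16 in experiment 1 and 1.92 in experiment 2.

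Double-positive and LAG3+ cells differed in Fasl by -0.17 ± 0.93 (95% interval -2.37 to 2.03), so these arrays do not show which is higher. PD-1+ cells overlapped with all of the other populations, and their change against triple-negative cells was 0.36 ± 0.93 (adjusted p = 0.896). Melanoma transcripts were also lower in triple-negative cells: 7 melanoma genes summed to 308 to 2394 intensity units on double-positive, 527 to 2299 on LAG3+, 830 to 4503 on PD-1+ and 211 to 239 on triple-negative arrays. The highest of each range was in experiment 2 for the receptor-positive populations, and the part of melanoma RNA in the Fasl values was not tested.

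**Figure D4:**
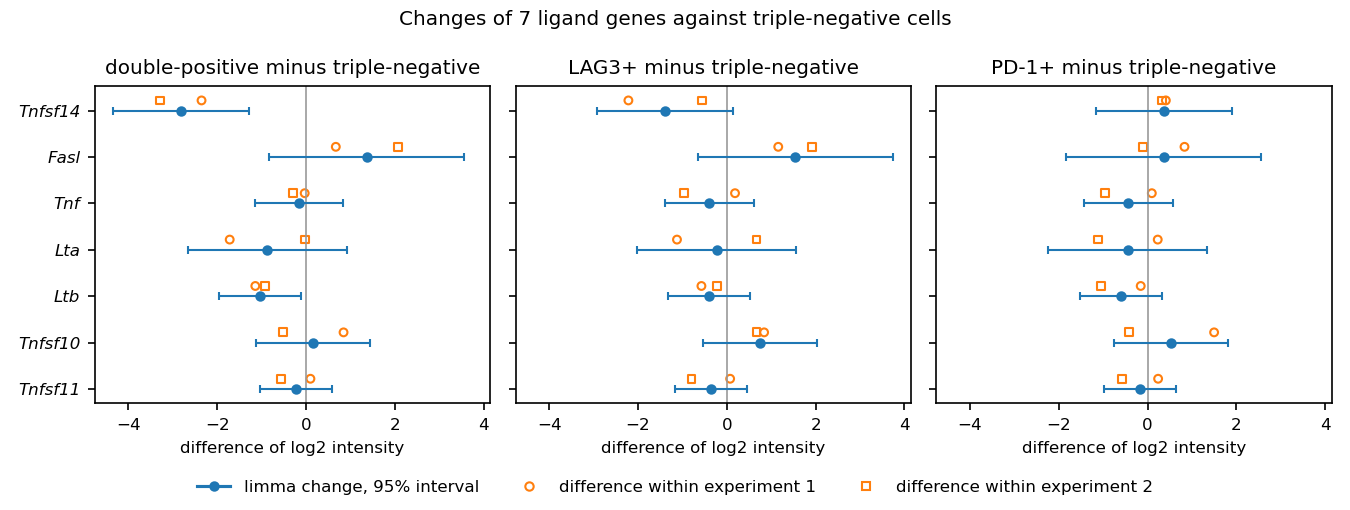
Differences of log2 intensity (horizontal axis) of the 7 tested ligand genes in double-positive, LAG3+ and PD-1+ cells minus triple-negative cells; blue points are limma changes with 95% intervals, and orange symbols the difference within each experiment. Tnfsf14 (-2.81) and Ltb (-1.03) in double-positive cells are the intervals that do not reach 0.

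Tnf encodes the cytokine TNF, made as a membrane protein and shed by ADAM17. Its level was 4.33 and 5.01 log2 units in double-positive cells, 4.55 and 4.33 in LAG3+ cells, 4.46 and 4.33 in PD-1+ cells and 4.36 and 5.30 in triple-negative cells. It was detected on 4 arrays and on neither PD-1+ array, and all populations overlapped. The change in double-positive against triple-negative cells was -0.16 ± 0.42 (95% interval -1.16 to 0.84, adjusted p = 0.972 in limma). With the probe detected on 4 of 8 arrays, differences within this interval could not be seen.

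Tnfsf10 encodes TRAIL, which in the mouse signals death through the receptor encoded by Tnfrsf10b. Its level was 5.01 and 4.19 log2 units in double-positive cells, 5.0 and 5.38 in LAG3+ cells, 5.66 and 4.28 in PD-1+ cells and 4.16 and 4.71 in triple-negative cells. LAG3+ cells were the only population in which both arrays detected it, and both lay above the triple-negative arrays, by 0.84 in experiment 1 and 0.67 in experiment 2. On triple-negative array 1 the probe was not detected, so the experiment 1 difference is against a signal that was not above background. The change was 0.76 ± 0.54 and did not pass the test (adjusted p = 0.824 in limma).

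Tnfsf11 encodes RANKL, the ligand of RANK that drives osteoclast formation and is also made by activated T cells. It was detected on 2 of 8 arrays and lay between 4.21 and 5.0 log2 units throughout, with changes from -0.36 to 0.13 over the 6 comparisons (SE 0.34). Cd40lg encodes CD40 ligand, best known as a signal of helper T cells to B cells and dendritic cells that carry CD40. It was detected on none of the 8 arrays, with 4.19 and 4.33 log2 units in double-positive, 4.23 and 4.30 in LAG3+, 4.53 and 4.32 in PD-1+ and 4.21 and 4.35 in triple-negative cells, and was left out of the tests. These arrays set no level for it beyond its not being detected.

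Of the 7 tested ligand genes, none was called by limma in any of the 6 comparisons. In double-positive against triple-negative cells 0 of 7 passed, where 0.938% of all tested genes did, and 2 (Tnfsf14 and Ltb) had an unadjusted p under 0.05, against 13.6% of all genes. The 2 populations did not overlap for 4 of the 7, lower for Tnfsf14, Lta and Ltb and higher for Fasl, against 44.3% of all genes. In LAG3+ against triple-negative cells 0 passed (0.152% of all genes), 0 had an unadjusted p under 0.05 (9.32%), and 4 did not overlap (38.8%): lower for Tnfsf14 and Ltb, higher for Fasl and Tnfsf10. In PD-1+ against triple-negative cells 0 passed (0.532%), 0 had an unadjusted p under 0.05 (14.8%), and 2 did not overlap (39.9%), Tnfsf14 and Ltb. The shares without overlap are therefore near those of all genes.

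Between the receptor-positive populations the counts were as low. In double-positive against LAG3+ cells 0 passed (0.00% of all genes), 0 had an unadjusted p under 0.05 (2.64%), and 3 did not overlap (31.5%): Tnfsf14, Ltb and Tnfsf11. In double-positive against PD-1+ cells 0 passed (0.0507%), 1, Tnfsf14, had an unadjusted p under 0.05 (14.7%), and it alone did not overlap (44.6%). In LAG3+ against PD-1+ cells 0 passed (0.0760%), 1, Tnfsf14 again, had an unadjusted p under 0.05 (11.5%), and Tnfsf14 and Tnfsf11 did not overlap (40.2%). Tnfsf11 was detected on 1 double-positive array and on no LAG3+ or PD-1+ array, so its lack of overlap is an order of signals at or near background. The F test over the 4 populations called 0 of 7 and 0.405% of all genes, or 32 genes, against 2 genes with the experiment as a block. The block also left 0 genes called in LAG3+ against triple-negative and against PD-1+ cells, where 12 and 6 were called without it. The comparisons share their arrays and are not independent. The median change of the 7 in double-positive against triple-negative cells was -0.23, against -0.0052 over all genes. Against triple-negative cells it was also -0.36 in LAG3+ cells (-0.0092 over all genes) and -0.17 in PD-1+ cells (-0.041 over all genes). In each of these comparisons the median was the value of Tnfsf11, whose signals lay at or near background. These medians therefore do not measure a shift of the ligand genes as a set.

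**Figure D5:**
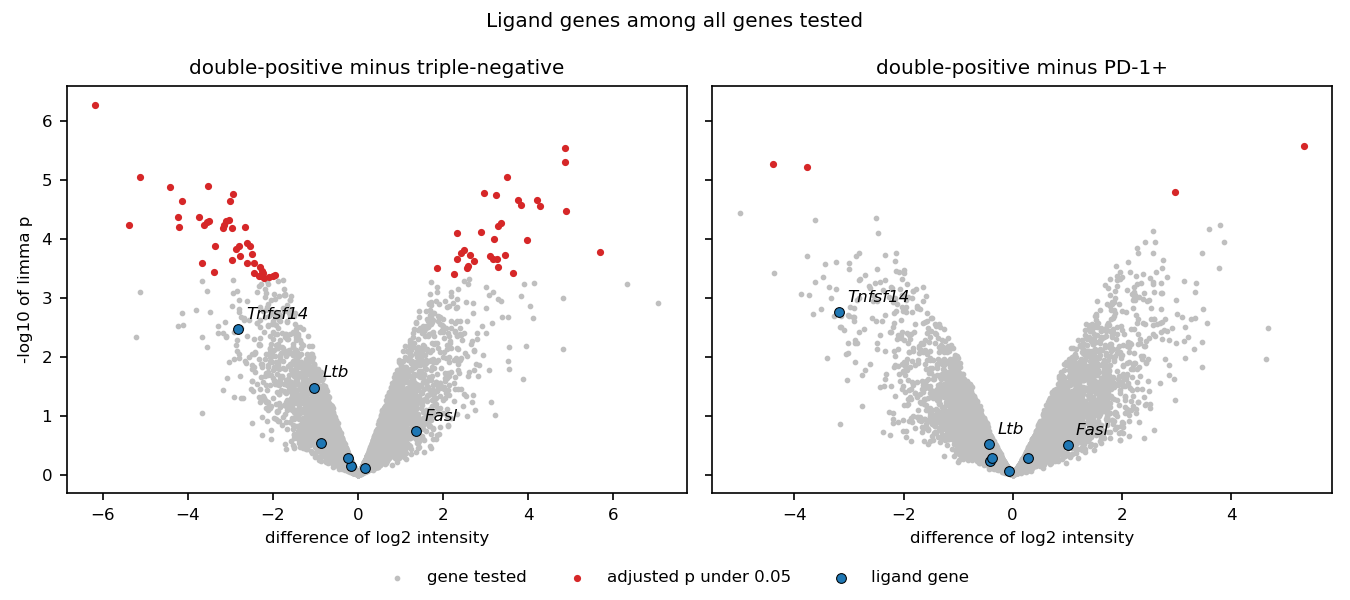
Difference of log2 intensity (horizontal axis) against -log10 of the limma p (vertical axis) for the 7893 tested genes in double-positive minus triple-negative cells (left) and double-positive minus PD-1+ cells (right); red points passed an adjusted p under 0.05 and blue points are the 7 tested ligand genes. Tnfsf14 lies at -2.81 and -3.18, outside the bulk of genes but below the red points, and the other ligand genes lie within it.

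Other ligands of the superfamily were mostly not detected. Of 9 found, 7 were detected on no array, among them Tnfsf9, the ligand of 4-1BB, and 2 were tested, neither called. Cd70, the ligand of CD27 and the neighbour of Tnfsf14, had 6.40 and 7.55 log2 units in double-positive cells, 5.39 and 4.47 in LAG3+ cells, 7.20 and 4.15 in PD-1+ cells and 4.23 and 4.09 in triple-negative cells, where it was not detected. By the means of 2 arrays, double-positive cells were at least 5.67-fold above triple-negative cells, the opposite direction to Tnfsf14. This bound leaves out the spread between arrays. The limma change was 2.82 ± 0.95 with adjusted p = 0.250, and 0.228 with the experiment as a block. It passed in 3 of 19 alternatives, each of which left out 1 or both PD-1+ arrays. Without both, a setting chosen after seeing the data, the adjusted p was 0.0329. With 1 array left out the change ranged from 2.28 to 3.27. Tnfsf13b, which encodes BAFF, a survival factor of B cells, differed by 0.92 ± 0.66 (adjusted p = 0.691 in limma). That difference rested on 1 array, with 6.08 and 4.24 log2 units in double-positive and 4.25 and 4.23 in triple-negative cells. In triple-negative cells it was not detected, and with 1 array left out the change ranged from 0.0024 to 1.88.

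Receptors for the 8 ligands were also little represented. Of 9 found, Tnfrsf14, Ltbr, Tnfrsf1a, Tnfrsf1b, Tnfrsf11a and Tnfrsf11b were detected on no array, and 3 were tested, with 0 called in any comparison and all 3 with a negative change in double-positive against triple-negative cells. Fas, the receptor of Fas ligand, had 4.39 and 4.32 log2 units in double-positive cells, 4.42 and 4.21 in LAG3+ cells, 4.18 and 4.46 in PD-1+ cells and 6.27 and 5.69 in triple-negative cells. All 6 receptor-positive arrays were near background and both triple-negative arrays above it. The change in double-positive against triple-negative cells was -1.63 ± 0.33, with adjusted p = 0.0864 in limma and 0.0384 when arrays were weighted by quality. Array weighting was the only 1 of 19 alternatives in which Fas passed. Cd40, the receptor of CD40 ligand, differed by -1.19 ± 0.72 (adjusted p = 0.593 in limma).

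Among the proteases that release these ligands from the membrane, 3 of 5 were tested and 0 were called, with differences of -1.19 ± 0.87 for Sppl2b and -0.999 ± 0.988 for Adam17 in double-positive against triple-negative cells (adjusted p = 0.699 and 0.826 in limma). The Adam17 value turned to 0.75 without double-positive array 2. Of 16 genes of death and TRAF signalling, 11 were tested and 1 was called. Ripk1, a kinase that acts downstream of TNF receptor 1, fell in PD-1+ against triple-negative cells. It had 4.43 and 4.23 log2 units in PD-1+ cells, where it was not detected, and 7.22 and 6.84 in triple-negative cells. By the means it was at least 4.50-fold lower, a bound that leaves out the spread between arrays (limma change -2.70 ± 0.33, adjusted p = 0.0367). The adjusted p ranged from 0.0260 to 0.319 over 18 alternatives, and 8 of them ended the call.

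Of 13 NF-kB subunits and inhibitors 12 were tested and 0 were called. In double-positive against triple-negative cells 10 of the 12 had a negative and 2 a positive change, with a median of -0.49 against -0.0052 over all genes. Nfkbid, an atypical inhibitor protein of the family, differed by -2.26 ± 0.69 (adjusted p = 0.207 in limma, 0.0328 with the experiment as a block). The block was the only 1 of 19 alternatives in which Nfkbid passed. Nfkbia, which encodes the inhibitor IkB alpha, differed by -1.58 ± 0.57 (adjusted p = 0.280). Of 7 NFAT and EGR genes, 5 were tested and 0 were called, with -1.23 ± 0.40 for Egr2 and 1.13 ± 0.45 for Nfat5 in the same comparison (adjusted p = 0.245 and 0.337 in limma).

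Transcripts of TNF and of several other cytokines carry AU-rich elements, through which proteins of the tristetraprolin family promote their decay. All 7 genes of such regulators were tested and 1 was called. Zfp36l1, a member of that family, fell in double-positive against triple-negative cells. It had 9.27 and 8.81 log2 units in double-positive cells and 11.58 and 10.97 in triple-negative cells, 4.70-fold lower (limma change -2.23 ± 0.35, adjusted p = 0.0451). LAG3+ cells had 9.97 and 10.06, and PD-1+ cells 10.47 and 10.24. The adjusted p ranged from 0.0208 to 0.356 over 19 alternatives, and 10 of them ended the call.

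By likeness over the 8 arrays, the genes closest to Tnfsf14 among the 7892 others tested were Ctdsp2 (Pearson r = 0.97), Pank2 (0.97) and Zfand2a (0.96). Ctdsp2 had 6.59 and 6.25 log2 units in double-positive cells, 6.75 and 7.25 in LAG3+ cells, 8.04 and 7.96 in PD-1+ cells and 7.82 and 7.90 in triple-negative cells. It thus showed the order of Tnfsf14 over a narrower range. Those closest to Fasl were Uba1 (0.98), Rad50 (0.97) and Septin9 (0.97). Adck1 was among the 3 closest to both Lta (0.93) and Ltb (0.94), the others being Comp and Clk3 for Lta and Ciz1 and Frat1 for Ltb. For the dim genes the closest were Acsm4, Ndst1 and P4ha2 (Tnf), Snrnp27, Rpia and Gfod1 (Tnfsf10), and Klhl11, Cdhr2 and Rps15 (Tnfsf11), with r from 0.91 to 0.97. These are the extremes of many correlations over 8 arrays and are given as a description. Between ligand genes, Tnfsf14 and Fasl had r = -0.61 over the 8 arrays.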

How the data were processed

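CD8+ cells from pooled tumors were profiled on 8 arrays. Per the file headers, the authors deposited unnormalized probe intensities and, for each, a detection p-value. The authors' normalized intensities, deposited in the value table on a linear scale with medians of 1.2 to 1.3, were an alternative only, since no label or header says how they were made (nor names the scanner software or the amplification). They kept the rank order of the unnormalized intensities and were not centred by gene.

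The function neqc of limma (version 3.58.1, R 4.3.3) subtracted the background, estimated from detection p-values as no control probes were listed, then applied quantiles with an offset of 16 and log2. The offset understates changes of dim genes. Of 25697 probes, 23978 had 1 symbol in the platform annotation, 0 had several, 1038 were named by accession and 681 as deposited. A gene was its brightest probe, and was tested if detected on at least 2 arrays, 7893 of 17830 genes. limma's lmFit and eBayes were run over all 8 arrays, 1 mean per population (4 residual and 2.98 prior degrees of freedom), two-sided, with Benjamini-Hochberg adjustment within each comparison. Values after ± are standard errors of a change. The number of arrays limits the precision. The median SE was 0.448, and an exact test of 2 arrays against 2 cannot go below p = 0.333. The labels number 2 experiments, taken as a shared batch. Deviations of same-numbered arrays correlated between 0.0920 and 0.222 over the 6 pairs of populations. Gene names, promoter sequences and gene order are from RefSeq GRCm38.p6, and 7 of the 8 ligand genes had a sequence there.

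Named genes were the 8 ligands, the sorted receptors, the 3 genes most like each, and from each pathway list every gene called, otherwise the 2 with the largest change in double-positive against triple-negative cells. The genes, lists and tests were chosen with earlier results of these data known. Alternatives covered normalization, detection filter, probe choice, array weights, the experiment block, the arrays fitted and leaving out each array.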

Additional observations from a re-analysis of the deposited data

How the results depend on the processing

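No ligand gene passed the threshold in any comparison under any of the 19 settings tried, and the lowest adjusted p was 0.0520, for Tnfsf14 in double-positive against triple-negative cells with the 4 arrays of those populations alone. The experiment block changed no call of a ligand gene. None of the 42 changes of ligand genes turned its direction in the 11 settings that keep all replicates of the populations compared. In several of these, such as the detection filters, the experiment block and array weights, the change itself stays as it was. Its direction could not turn there, so those settings do not test it. Leaving out 1 array turned 20 of the 42, and the cause was not tested.

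With 1 array left out, the change of Fasl ranged from -0.997 to 1.75 in PD-1+ against triple-negative cells, -0.65 to 0.30 in double-positive against LAG3+, -0.32 to 2.40 in double-positive against PD-1+ and -0.15 to 2.57 in LAG3+ against PD-1+ cells. That of Tnf ranged from -0.53 to 0.33, -0.72 to 0.080 and -0.76 to 0.034 in double-positive, LAG3+ and PD-1+ against triple-negative cells, from -0.11 to 0.52 in double-positive against LAG3+, -0.063 to 0.56 in double-positive against PD-1+ and -0.063 to 0.17 in LAG3+ against PD-1+ cells. Lta ranged from -0.77 to 0.29 and -1.56 to 0.62 in LAG3+ and PD-1+ against triple-negative cells, and from -1.54 to 0.66 and -0.86 to 1.32 in double-positive and LAG3+ against PD-1+ cells. Ltb ranged from -0.95 to 0.054 and -0.29 to 0.69 in double-positive and LAG3+ against PD-1+ cells. Tnfsf10 ranged from -0.22 to 0.60 and -0.17 to 1.31 in double-positive and PD-1+ against triple-negative cells, and from -1.13 to 0.34 and -0.49 to 0.96 in double-positive and LAG3+ against PD-1+ cells. Adam17 ranged from -2.63 to 0.75 in double-positive against triple-negative cells.

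The count of all genes called moved far more. With 1 array left out it ranged from 0 to 240 in double-positive, 0 to 68 in LAG3+ and 0 to 313 in PD-1+ against triple-negative cells, from 0 to 388 and 0 to 173 in double-positive and LAG3+ against PD-1+ cells, and from 0 to 281 in the F test. In double-positive against triple-negative cells, where 74 were called, it was 42 with no detection filter, 229 with array weights and 235 without both PD-1+ arrays, a setting chosen after seeing the data. In LAG3+ against triple-negative cells (12 called) it was 21 with quantile normalization alone, 23 with an offset of 50, 66 with array weights, 72 without both PD-1+ arrays, and 0 with the experiment block or with the arrays of the 2 populations alone. In PD-1+ against triple-negative cells (42 called) it was 0 with array weights and with the 2 populations alone. In double-positive against LAG3+ cells it was 1 with no detection filter. In double-positive against PD-1+ cells (4 called) it was 7 with quantile normalization alone, 26 with no filter, 7 with the stricter filter, 14 with every probe tested and 0 with the 2 populations alone. In LAG3+ against PD-1+ cells (6 called) it was 2 with quantile normalization alone or an offset of 50, and 0 with the experiment block, array weights or the 2 populations alone. The F test (32 called) gave 60 with the mean of a gene's detected probes, 2 with the block and 61 with array weights. Dim signals limit Tnf, Tnfsf10, Tnfsf11 and Cd40lg, which were detected on 4, 5, 2 and 0 of the 8 arrays.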
